A study of Mus musculus with 18 samples.

Results

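The first step of effector regulatory T cell (TR) differentiation was compared between lymph node and spleen in 12 of the 18 libraries of the series. The 12 were chosen by name: every library of Id3+ central TR (Id3+ cTR) and of Id3+ effector TR (Id3+ eTR). For each gene the first step is the log2 difference of Id3+ eTR minus Id3+ cTR within a tissue, and the interaction is the lymph node step minus the spleen step. A positive interaction means that the step lay higher in lymph node. The question was which functions are gained or lost earlier in lymph node.

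All mice were C57BL/6 littermates that carried the Id3-GFP and Foxp3-mRFP reporters, so every group shares both alleles, and no treatment is given in the labels. Mice 84, 86 and 87 each gave 1 RNA-seq library of 500 sorted CD4+ T cells per population and tissue, and ages are not given in the labels. The groups were Id3+ cTR (sorted as central, CD44 low) and Id3+ eTR (sorted as effector, CD44 high) from spleen, and the same populations from peripheral lymph node, with 3 libraries each. The Id3- eTR of each tissue, another 6 libraries, served as the end of the path. In such sorted samples, fewer cells that express a gene and less of its RNA per cell cannot be told apart. Values by mouse are given in the order 84, 86 and 87.

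Regulatory T cells express the transcription factor Foxp3 and restrain other lymphocytes. Central cells recirculate through lymphoid organs and keep the egress receptor S1pr1 and the factors Klf2 and Satb1, while effector cells lose these and gain homing receptors, costimulatory receptors and suppressive molecules. Id3 holds E-protein transcription factors in check, and T follicular regulatory cells, which act on germinal centres, share genes such as Tox2 and Sh2d1a with follicular helper cells.

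Total counts ran from 1600782 to 3153325 per library, and 13701 to 15045 genes were detected. The spleen Id3+ eTR library of mouse 84 stood apart: the variance between it and the other libraries of its group was 22.2 and 22.3 times that of counting noise, against 4.45 to 8.07 for every other pair within a group. Spleen Id3+ cTR of mice 84 and 87 were shallow, so results are also given without these libraries where they change. Among the sort genes, Cd44 rose by 1.30 in lymph node (SE 0.25, adjusted p = 0.00352) and by 1.20 in spleen (adjusted p = 0.0127). The interaction was 0.30 for Id3 and -0.05 for Foxp3, and neither passed the test. Among markers of other cells, the erythroid and platelet sum ran from 210.9 to 336.8 CPM (counts scaled to library size) in spleen Id3+ cTR, 15.2 to 164.0 in spleen Id3+ eTR and 5.30 to 13.9 in the lymph node Id3+ libraries, where Hba-a1 was at 0. The B cell sum ran from 923.7 to 1165 CPM in lymph node Id3+ cTR and 1244 to 1601 in lymph node Id3+ eTR, against 1322 to 1691 and 1091 to 1405 in spleen. Its leading members were Ighm and Cd74, while Pax5, a defining B cell factor, stood at 0 to 4.0 CPM. The myeloid sum ran from 145.2 to 174.9 CPM in lymph node Id3+ cTR and 227.2 to 480.2 in Id3+ eTR, against 153.0 to 275.7 and 172.5 to 326.8 in spleen. Lyz2 and Cst3 led it. Tyrobp stood at 3.79, 1.98 and 4.62 CPM in lymph node Id3+ cTR and 12.4, 5.8 and 14.9 in Id3+ eTR, and C1qb at 2.27, 0.331 and 4.26 and then 5.25, 2.71 and 22.8, while S100a8 and S100a9 were at 0. The sum of conventional CD4 T cell markers, which include Cd40lg and Slamf6, ran from 1303 to 1463 CPM in lymph node Id3+ cTR and 1566 to 1763 in Id3+ eTR, and from 1326 to 1479 and then 1181 to 1269 in spleen. It thus moved in opposite directions in the tissues, without overlap in either. The sum is a net of members that moved apart. In lymph node Bhlhe40 went from 40.5, 24.1 and 21.3 CPM to 257, 219 and 232. There Igfbp4 went from 380, 350 and 347 to 92.7, 117 and 74.1, and Itgb3 from 71.2, 58.2 and 69.2 to 26.3, 32.5 and 29.4. The part of these other cell types in the results was not tested.

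Within each tissue the first step changed many genes. In lymph node 705 of 12445 genes changed (5.66%), with 523 higher in Id3+ eTR (4.2%) and 182 lower (1.46%), by edgeR's quasi-likelihood test with Benjamini-Hochberg adjustment at 0.05. In spleen 538 changed (4.32%), with 365 higher (2.93%) and 173 lower (1.39%). Of the genes that rose, 237 rose in both tissues, 45.3% of the lymph node list and 64.9% of the spleen list. Of those that fell, 53 fell in both, 29.1% and 30.6% of the lists, and 0 were called in opposite directions. The counts depended on single libraries. The spleen count was 345 without Id3+ eTR of mouse 84 (264 higher and 81 lower, beside 591 and 250 in lymph node), 301 without Id3+ cTR of mouse 84, 256 without Id3+ cTR of mouse 87 and 69 without all of these. The lymph node count was 458 without Id3+ cTR of mouse 87.

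The difference between the steps passed the test for no single gene. The edgeR test called 0 interactions (0%), and the smallest adjusted p was 0.202. At an unadjusted p under 0.05 there were 1180 genes (9.48%), of which 593 (4.76%) had the higher step in lymph node and 587 (4.72%) in spleen. Without spleen Id3+ eTR of mouse 84 these counts were 559 and 388. DESeq2 called 66 and limma-voom 0. Interactions are therefore given below with unadjusted p, and a call in one tissue without a call in the other does not show that the steps differ.

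Genes called over the whole path, from Id3+ cTR to Id3- eTR, set a scale for the first step. In lymph node 1610 genes changed over the path (12.9%; 8.26% higher and 4.68% lower) and in spleen 1526 (12.3%; 7.17% higher and 5.09% lower), of which 633 rose and 311 fell in both tissues. For each mouse the median first step over these genes was divided by their median change over the whole path, which gives the share of the path covered at the first step. For rising genes it was 59.1%, 56.2% and 60.2% in lymph node and 55.6%, 49.9% and 50.4% in spleen, with means of 58.5% ± 2.06 and 52.0% ± 3.14 (SD, n = 3). The lymph node share was higher in each mouse, by 3.55, 6.28 and 9.83 percentage points. The median first step itself was 1.15, 1.09 and 1.16 in lymph node and 1.16, 0.88 and 1.04 in spleen. It was thus not larger in lymph node in mouse 84, where the whole path was 1.94 in lymph node and 2.09 in spleen. For falling genes it was 49.0%, 51.4% and 45.6% in lymph node and 39.2%, 31.3% and 45.5% in spleen, with means of 48.7% ± 2.92 and 38.7% ± 7.10 (SD, n = 3). Here mouse 87 was level, with a difference of 0.110 points, beside 9.80 and 20.1 in the other mice. The median first step of falling genes was -0.509, -0.525 and -0.486 in lymph node and -0.457, -0.313 and -0.495 in spleen. An exact sign-flip test over 3 mice cannot go below p = 0.25, so no test was made, and the path genes were chosen on these same libraries. With the genes chosen without a mouse and read in that mouse, the rising difference was 10.2, 12.9 and 6.73 points.

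**Figure D1:**
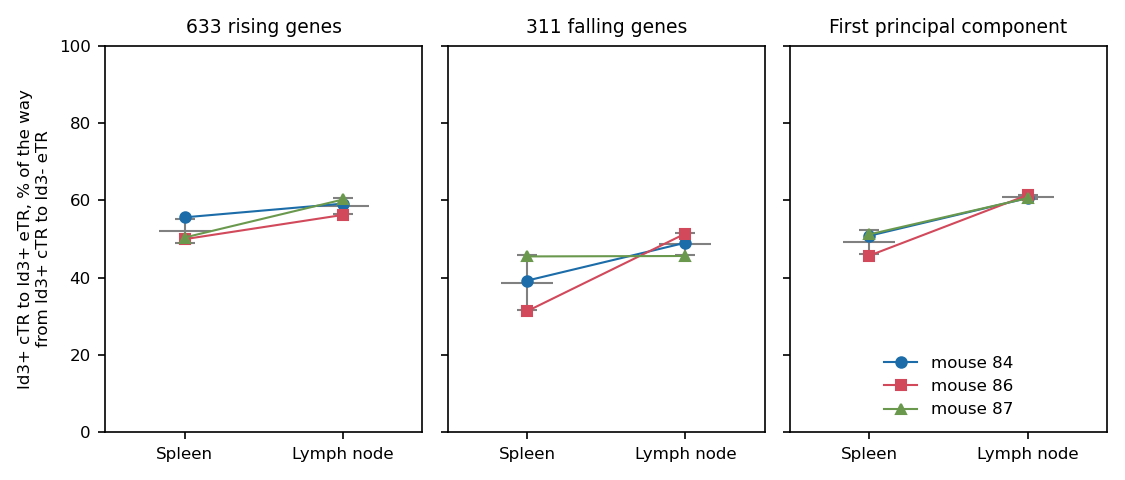
Share of the path from Id3+ cTR to Id3- eTR that Id3+ eTR had covered (percent, vertical axis) in spleen and lymph node, for 633 rising genes, 311 falling genes and the first principal component. Each line is 1 mouse and grey bars are mean ± SD. Lymph node lies above spleen in every line, though mouse 87 is nearly level for falling genes.

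A principal component analysis of the 18 libraries gave the same order. On the first component, which held 31.6% of the variance, Id3+ eTR stood at 60.6%, 61.4% and 60.6% of the way from Id3+ cTR to Id3- eTR in lymph node and at 50.8%, 45.7% and 51.2% in spleen. The means were 60.8% ± 0.457 and 49.2% ± 3.07 (SD, n = 3), and the tissues did not overlap.

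For single genes, the 3 steps of lymph node were set against the 3 of spleen. Over all genes tested the steps did not overlap in 1784 (14.3%), with lymph node above in 902 (7.25%) and spleen above in 882 (7.09%). Among the 633 rising path genes, 95 had the larger lymph node step and 21 the larger spleen step. Among the 311 falling path genes, 56 had every lymph node step below every spleen step and 15 the reverse. Path genes were chosen for changing in both tissues, so these shares describe the path and are not a test of it.

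**Figure D2:**
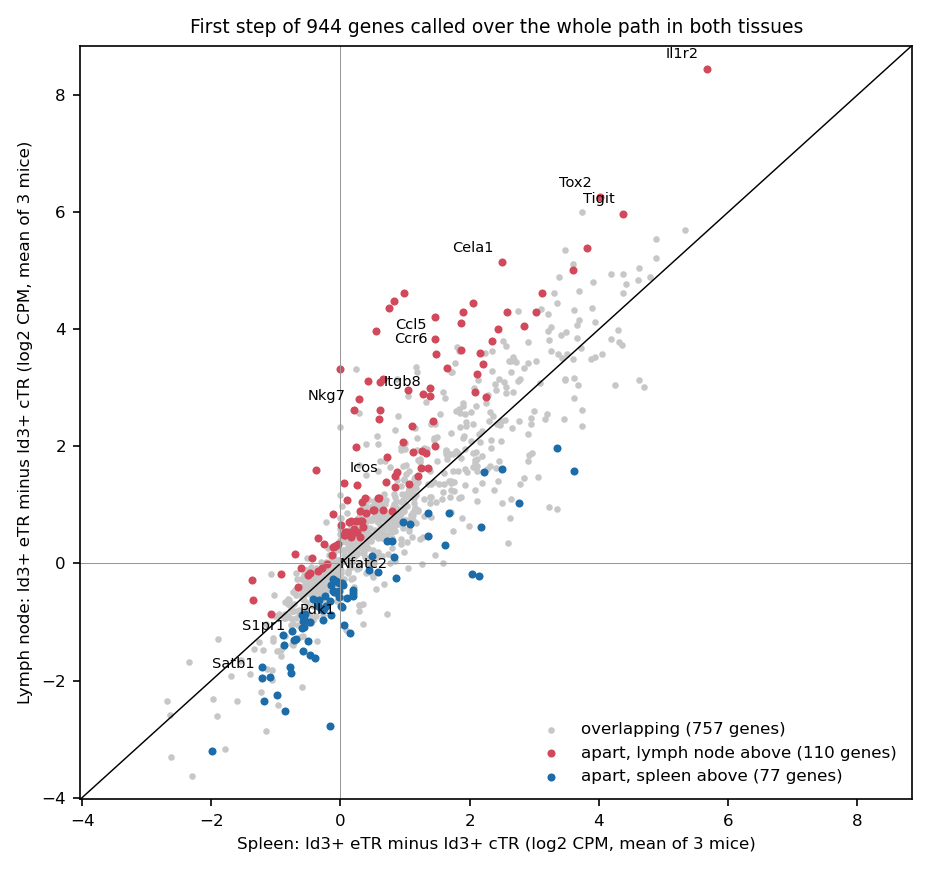
First step in spleen (horizontal axis) and lymph node (vertical axis), log2 CPM averaged over 3 mice, for the genes called over the whole path in both tissues. Coloured points are the 110 genes with lymph node steps all above and the 77 with spleen steps all above, and the other 757 overlapped.

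Genes of the resting, recirculating state fell in both tissues, and 10 of 24 tested had every lymph node step below every spleen step, against 3 the other way. The shares over all genes were 7.09% and 7.25%. The edgeR test called 15 of them lower in lymph node and 11 lower in spleen, and none higher, and 15 and 12 without spleen Id3+ eTR of mouse 84. Of all genes, 1.46% fell in lymph node and 1.39% in spleen. The list's median interaction was -0.09, -0.36 and -0.19 by mouse, beside -0.02, 0.00 and 0.00 over all genes. Satb1, a chromatin organiser, stood at 611, 657 and 685 CPM in lymph node Id3+ cTR and 150, 157 and 195 in Id3+ eTR. In spleen it stood at 730, 686 and 869 and then 331, 325 and 328. Lymph node lay below spleen without overlap in Id3+ eTR and, by less, in Id3+ cTR. Satb1 fell by 1.95 in lymph node (SE 0.13, adjusted p = 5.66e-08) and by 1.22 in spleen (SE 0.12, adjusted p = 2.67e-05), an interaction of -0.74 (SE 0.17, unadjusted p = 0.000516).

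The egress receptor S1pr1 and Klf2, the factor that drives its expression, overlapped the levels of Id3- eTR in lymph node Id3+ eTR but not in spleen Id3+ eTR. S1pr1 stood at 224, 256 and 282 CPM in lymph node Id3+ eTR and 247, 273 and 252 in Id3- eTR, which overlapped. In spleen it stood at 491, 423 and 352 in Id3+ eTR and 220, 286 and 233 in Id3- eTR, which did not overlap. It fell by 1.31 in lymph node (SE 0.13, adjusted p = 6.16e-06) and by 0.71 in spleen (adjusted p = 0.00362). Klf2 stood at 120, 155 and 157 CPM in lymph node Id3+ eTR and 133, 129 and 145 in Id3- eTR. Spleen held 274, 248 and 241 and then 133, 228 and 184. Klf2 fell by 1.09 in lymph node (adjusted p = 0.000281) and by 0.56 in spleen (adjusted p = 0.0431). The interactions were -0.60 (SE 0.18) and -0.52 (SE 0.21), with -0.71 for S1pr1 in mouse 86.

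Bcl2, which protects cells from death, fell by 1.0 in lymph node (adjusted p = 6.64e-05) and by 0.47 in spleen (adjusted p = 0.0362), from 611, 618 and 583 to 263, 325 and 320 CPM and from 609, 481 and 525 to 458, 367 and 342. Lef1, a transcription factor of naive T cells, fell by 0.88 (adjusted p = 9.11e-06) and 0.60 (adjusted p = 0.000928). Ccr7, the homing receptor for lymph node, was an exception. It fell by 0.66 in spleen (adjusted p = 0.0194) and stood at -0.40 in lymph node (adjusted p = 0.153), with an interaction of 0.25 (unadjusted p = 0.249).

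Of 16 follicular TR genes tested (of 18 listed), 12 rose in lymph node and 6 in spleen, and none fell. Of all genes, 4.2% rose in lymph node and 2.93% in spleen. Every lymph node step lay above every spleen step in Slamf6, Btla, Sh2d1a, Tox, Batf, Tox2, Cd200 and Tnfsf8, which makes 8, and the reverse held in 0. Over all genes the shares of such steps were 7.25% and 7.09%. The median interaction was 0.45, 0.82 and 0.64 by mouse. Without spleen Id3+ eTR of mouse 84, the list gave 13 and 6 rises over 18 members tested. Sh2d1a, which encodes the adaptor SAP, stood at 125, 123 and 114 CPM in lymph node Id3+ cTR and 287, 249 and 250 in Id3+ eTR. In spleen it stood at 152, 132 and 154 and then 152, 201 and 223. It rose by 1.12 in lymph node (adjusted p = 2.55e-05) and its spleen step was 0.40 (adjusted p = 0.0818), an interaction of 0.72 (SE 0.18, unadjusted p = 0.00077). Its Id3- eTR levels were alike, at 204, 235 and 220 CPM in lymph node and 218, 238 and 229 in spleen.

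Slamf6, a receptor that signals through SAP, stood at 488, 424 and 449 CPM in lymph node Id3+ cTR and 699, 609 and 638 in Id3+ eTR, against 605, 534 and 577 and then 417, 540 and 527 in spleen. It rose by 0.52 in lymph node (adjusted p = 0.0152) and stood at -0.21 in spleen (adjusted p = 0.363). The interaction was 1.06, 0.50 and 0.64 by mouse, so it was positive in each. Btla, an inhibitory receptor, had an interaction of 0.66 (SE 0.16) with steps of 0.36 and -0.31 that did not pass the test. Tox, a nuclear factor, rose by 1.13 in lymph node (adjusted p = 3.22e-06) and 0.59 in spleen (adjusted p = 0.00398). Tox2 had 1 count over the lymph node Id3+ cTR libraries and 61.6, 66.1 and 76.5 CPM in Id3+ eTR, a ratio of 584 (95% counting interval 104 to 23105). Its spleen values ran from 7.15, 0 and 3.08 to 114, 21.2 and 40.4 CPM, and its interaction turned to -0.66 without the 3 spleen libraries in doubt. Sh2d1a, Tox, Tox2 and Cd200 were chosen after their values were seen, as were Klf2, Lef1, Tigit, Ctla4, Cd28, Areg, Nfkb2, Egr2, Ccr7, Mki67 and Tnfrsf4.

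Of 26 genes of TNF receptors, costimulation and NF-kB, 8 rose in lymph node and 6 in spleen, and none fell. Rises made up 4.2% and 2.93% of all genes. Lymph node steps lay above in 10 and spleen steps in 3, against 7.25% and 7.09% of all genes. The median interaction was 0.16, 0.23 and 0.37 by mouse. Without spleen Id3+ eTR of mouse 84, 9 rose in lymph node and 4 in spleen. Icos, a costimulatory receptor needed by effector and follicular cells, stood at 231, 256 and 221 CPM in lymph node Id3+ cTR and 653, 633 and 569 in Id3+ eTR. In spleen it stood at 187, 181 and 211 and then 264, 341 and 349, so that Id3+ eTR did not overlap between tissues. It rose by 1.39 (SE 0.11, adjusted p = 5.02e-07) in lymph node and by 0.72 (SE 0.11, adjusted p = 0.000997) in spleen. The interaction was 0.67 (SE 0.15, unadjusted p = 0.000399), with 1.0, 0.39 and 0.64 by mouse.

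Cd40lg, the ligand that T cells offer to B cells, rose by 0.82 in lymph node (adjusted p = 0.0167) and stood at -0.14 in spleen, with interactions of 1.33, 1.12 and 0.49 by mouse. Cd28 rose by 0.47 in lymph node (adjusted p = 0.0092) and stood at -0.06 in spleen. Tnfrsf4, which encodes OX40, rose by 0.52 (adjusted p = 0.0305) and stood at -0.03. Tnfrsf18, which encodes GITR, had steps of 0.31 and -0.33, neither past the test, and interactions of 0.94, 0.30 and 0.64. Icos, Cd28 and Tnfrsf18 are among the densely counted genes, where the interaction of mouse 84 was high in general, as set out below. Other named genes in the densest 10% include Batf, Cd200, Ctla4, Tigit, Nkg7, Cst7 and Ccl5, and S1pr1 and Klf2 among those that fell.

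Of the 18 genes of core TR identity tested, 7 rose in lymph node and 3 in spleen, against 4.2% and 2.93% of all genes. Ctla4, which strips costimulatory ligands from other cells, rose by 0.54 in lymph node (adjusted p = 0.00379) and stood at 0.07 in spleen (adjusted p = 0.782), but mouse 86 gave an interaction of 0.11. Of 21 suppressive genes, 8 rose in lymph node and 6 in spleen, and the median interaction was 0.15, 0.45 and 0.34. Without spleen Id3+ eTR of mouse 84, 8 rose in lymph node and 7 in spleen. Itgb8, whose product activates latent TGF-beta, stood at 16.7, 23.5 and 22.4 CPM in lymph node Id3+ cTR and 164, 175 and 127 in Id3+ eTR. In spleen it stood at 19.5, 35.6 and 30.8 and then 97.5, 67.6 and 61.4. Every lymph node Id3+ eTR library lay above the spleen libraries. Itgb8 rose by 2.89 (SE 0.26, adjusted p = 2.21e-06) and 1.38 (SE 0.25, adjusted p = 0.00462), an interaction of 1.51 (SE 0.36, unadjusted p = 0.000555). Tigit, an inhibitory receptor, rose by 6.17 in lymph node (adjusted p = 3.27e-08), to 195, 138 and 140 CPM. In spleen it rose to 72.0, 87.9 and 101 CPM (adjusted p = 1.16e-06). Areg, an epithelial growth factor made by tissue TR, rose by 2.99 in lymph node (adjusted p = 0.00122) and stood at 1.10 in spleen (adjusted p = 0.219). Its steps overlapped between tissues, at 1.93, 3.39 and 3.29 by mouse in lymph node and 0.04, 0.39 and 2.72 in spleen.

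Among chemokine and lipid mediator receptors, Ccr6, the receptor for CCL20, stood at 24.6, 10.3 and 15.3 CPM in lymph node Id3+ cTR and 225, 193 and 177 in Id3+ eTR. In spleen it stood at 26, 24 and 17.9 and then 59, 54.1 and 82. The Id3+ cTR levels overlapped between tissues and the Id3+ eTR levels did not. Ccr6 rose by 3.58 in lymph node (SE 0.32, adjusted p = 2.21e-06) and by 1.52 in spleen (SE 0.32, adjusted p = 0.011). The interaction was 2.06 (SE 0.44, unadjusted p = 0.000249, adjusted p = 0.245). Cysltr2, a leukotriene receptor, rose by 3.87 (adjusted p = 1.89e-05) and 1.64 (adjusted p = 0.0132). Of 25 members tested, 12 rose and 1 fell in lymph node, against 8 and 2 in spleen, and the median interaction was 0.10, 0.02 and 0.30. Of all genes, 4.2% rose and 1.46% fell in lymph node, and 2.93% and 1.39% in spleen. Ccr2 belonged to the later step: 1.43, 1.16 and 5.89 CPM in lymph node Id3+ eTR and 431, 415 and 499 in Id3- eTR.

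Nkg7, a granule protein of cytotoxic lymphocytes, rose in lymph node by 2.55 (SE 0.35, adjusted p = 0.000206) and stood at 0.16 in spleen (SE 0.34, adjusted p = 0.841). It held 38.6, 13.9 and 16 CPM in lymph node Id3+ cTR and 134, 101 and 163 in Id3+ eTR, and in spleen 60.5, 34.4 and 30.8 and then 40.9, 48.8 and 50.1. The interaction was 2.38 (SE 0.49, unadjusted p = 0.000144), with 2.33, 2.29 and 2.60 by mouse. It passed adjustment when lymph node Id3+ cTR of mouse 84 was left out. Cst7, an inhibitor of cysteine proteases, rose by 2.42 (adjusted p = 4.3e-07) and 1.45 (adjusted p = 0.000173). Ccl5, a chemokine of effector lymphocytes, rose by 4.36 in lymph node (adjusted p = 0.000399) with 183, 30.5 and 53.3 CPM in Id3+ eTR, and stood at 1.51 in spleen (adjusted p = 0.213). Of 15 genes of the cytotoxic list, 4 rose in lymph node, and 1 rose and 2 fell in spleen. The shares over all genes were 4.2%, 2.93% and 1.39%. The CD8 T and NK marker sum ran from 62.2 to 109.0 CPM in lymph node Id3+ cTR and 184.0 to 409.0 in Id3+ eTR, against 83.9 to 174.9 and 123.7 to 158.6 in spleen. The rise in lymph node lay mostly in Nkg7 and Ccl5. Cd8b1, a subunit of CD8, stood at 65.5, 44.3 and 59.6 CPM in lymph node Id3+ cTR and 49.2, 39.0 and 48.1 in Id3+ eTR. Cd8a rose there in each mouse, from 0, 1.654 and 11.005 CPM to 34.877, 5.411 and 27.35. In spleen Cd8a also rose in each mouse, from 47.466, 0.799 and 17.882 CPM to 51.262, 11.802 and 22.929. Klrb1c, another member of the sum, went from 0 in each lymph node Id3+ cTR library to 4.778, 6.956 and 0 CPM. In spleen Klrb1c went from 0 in each to 9.046, 4.884 and 15.545. Ncr1 was at 0 in every library. The part of such cells in the result was not tested.

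**Figure D3:**
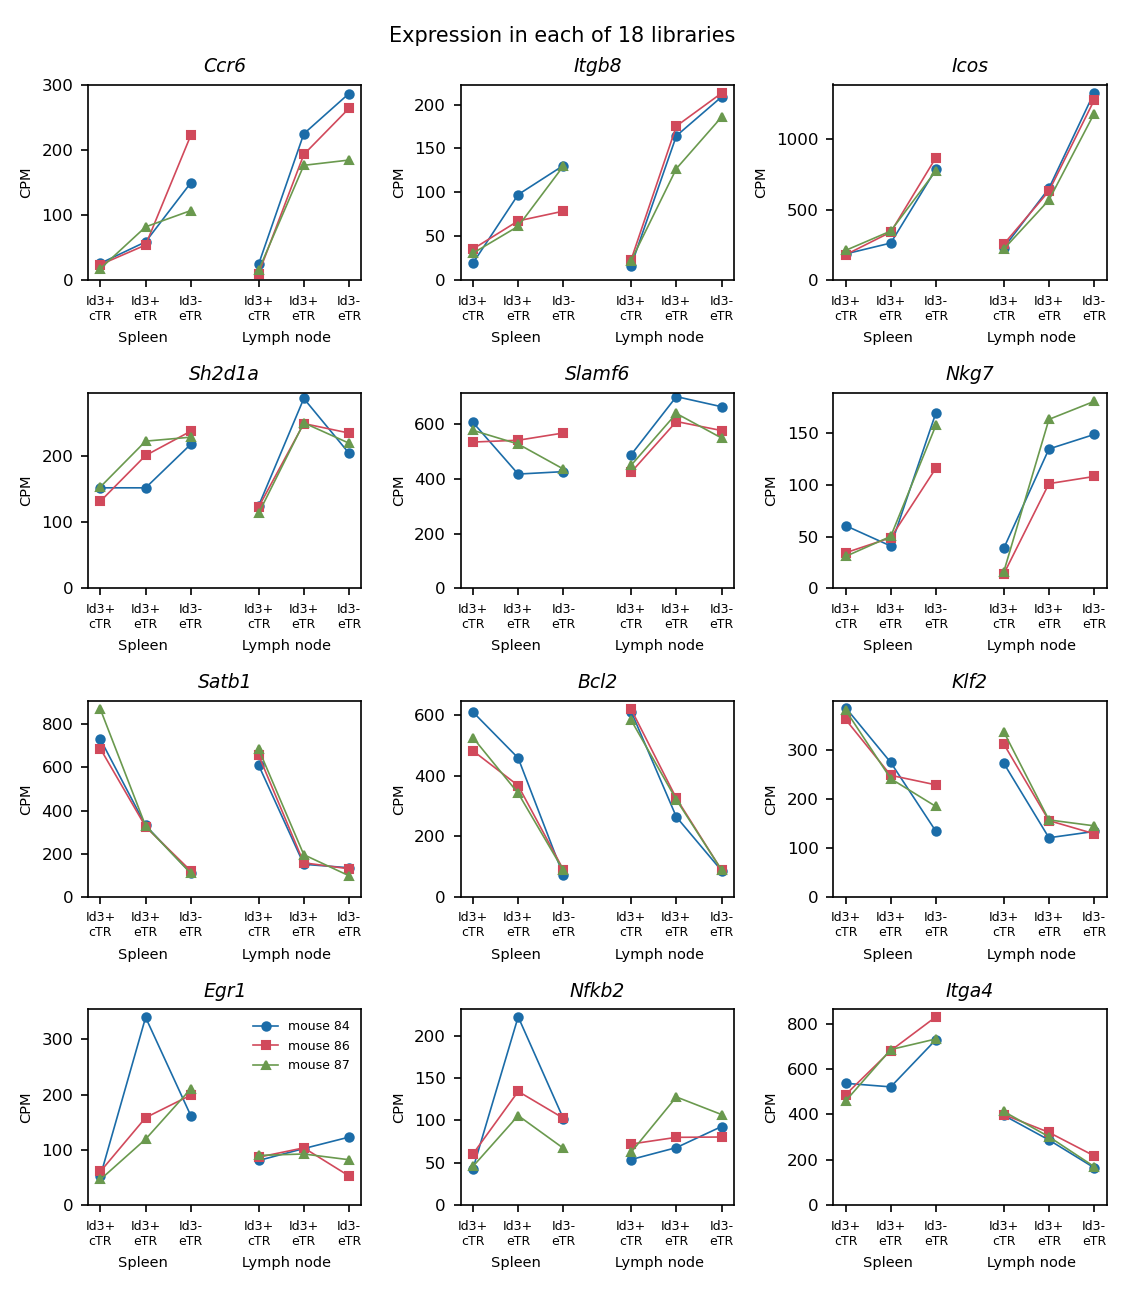
Normalised CPM (vertical axes) of 12 genes in each of the 18 libraries, with spleen left and lymph node right, populations in the order of the path and 1 line per mouse. Ccr6, Itgb8, Icos and Nkg7 are higher, and Satb1 and Klf2 lower, in lymph node Id3+ eTR than in spleen Id3+ eTR.

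Myc, a transcription factor that drives growth and ribosome production, fell in lymph node by 0.73 (adjusted p = 0.00687), and its spleen step was -0.00. It held 246, 278 and 290 CPM in lymph node Id3+ cTR and 153, 189 and 150 in Id3+ eTR, and in spleen 150, 205 and 208 and then 201, 170 and 191. Of 29 genes of ribosome biogenesis and the Myc network, 2 rose and 3 fell in lymph node, against 1 and 0 in spleen, so most passed no test. Of all genes, 4.2% rose and 1.46% fell in lymph node, and 2.93% and 1.39% in spleen. The lymph node step lay below in 9 members of the list and above in 0, against 7.09% and 7.25% of all genes. The median interaction was -0.48, -0.20 and -0.32. Pdk1, a mitochondrial kinase that inhibits pyruvate dehydrogenase, fell by 1.05 in lymph node (adjusted p = 0.00142) and stood at 0.10 in spleen. It was 285, 303 and 311 and then 141, 157 and 136 CPM in lymph node, and 237, 258 and 252 and then 344, 262 and 190 in spleen, a wide spread. St3gal4, a sialyltransferase that builds selectin ligands, fell by 1.71 in lymph node (adjusted p = 3.4e-05) and stood at -0.50 in spleen (adjusted p = 0.146).

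Some genes took the larger step in spleen. Egr1, an early response gene of T cell receptor signalling, rose by 1.95 in spleen (SE 0.33, adjusted p = 0.00276) and stood at 0.21 in lymph node (adjusted p = 0.854). It held 52.7, 60.7 and 46.2 CPM in spleen Id3+ cTR and 340, 158 and 119 in Id3+ eTR, and 80.6, 86.6 and 89.8 and then 102, 104 and 92.4 in lymph node. The library of mouse 84 was the highest, and without it the interaction was -1.16. Egr1 also stands in the list of immediate-early and dissociation stress genes, as do Klf2 and Zfp36l1, whose larger step was in lymph node. That list's sum ran from 6728 to 8047 CPM in spleen Id3+ cTR and 7099 to 7729 in spleen Id3+ eTR. In lymph node it ran from 6068 to 6368 and then 6204 to 6988. Its median interaction was 0.39, 0.02 and -0.03 by mouse. The part of tissue handling in these values was not tested. The NF-kB subunit gene Nfkb2 rose by 1.63 in spleen (adjusted p = 0.00363), with 222, 134 and 106 CPM in Id3+ eTR, and stood at 0.55 in lymph node (adjusted p = 0.352). Its interaction was -2.02, -1.0 and -0.18 by mouse, so it was largest in mouse 84 and small in mouse 87. The T cell receptor-induced list did not lean one way: of 20 tested, 6 rose and 1 fell in lymph node and 7 rose in spleen. The shares over all genes were 4.2%, 1.46% and 2.93%. Gbp3, an interferon-inducible GTPase, rose by 0.77 in spleen (adjusted p = 0.0132) and stood at -0.43 in lymph node (adjusted p = 0.156), an interaction of -1.20 (SE 0.23, unadjusted p = 8.11e-05, adjusted p = 0.202).

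Itga4, the alpha-4 integrin subunit used in homing, fell in lymph node by 0.41 (SE 0.12, adjusted p = 0.0497) and stood at 0.35 in spleen (adjusted p = 0.0993). Spleen held 536, 486 and 458 CPM in Id3+ cTR, 521, 680 and 685 in Id3+ eTR and 729, 830 and 732 in Id3- eTR. Lymph node held 395, 399 and 412, then 287, 320 and 301, then 164, 217 and 169. Over the whole path it fell by 1.13 in lymph node (adjusted p = 4.85e-06) and rose by 0.63 in spleen (adjusted p = 0.00134). Among the 12445 genes, 36 differed between the tissues in Id3+ eTR (0.289%), 14 higher in lymph node (0.112%) and 22 lower (0.177%), against 1 in Id3+ cTR (0.00804%). Itga4 was lower in lymph node Id3+ eTR, with a log2 difference of -1.05 (adjusted p = 0.00039), Satb1 likewise (-0.97, adjusted p = 0.00169), and Icos was higher (0.96, adjusted p = 0.00039).

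**Figure D4:**
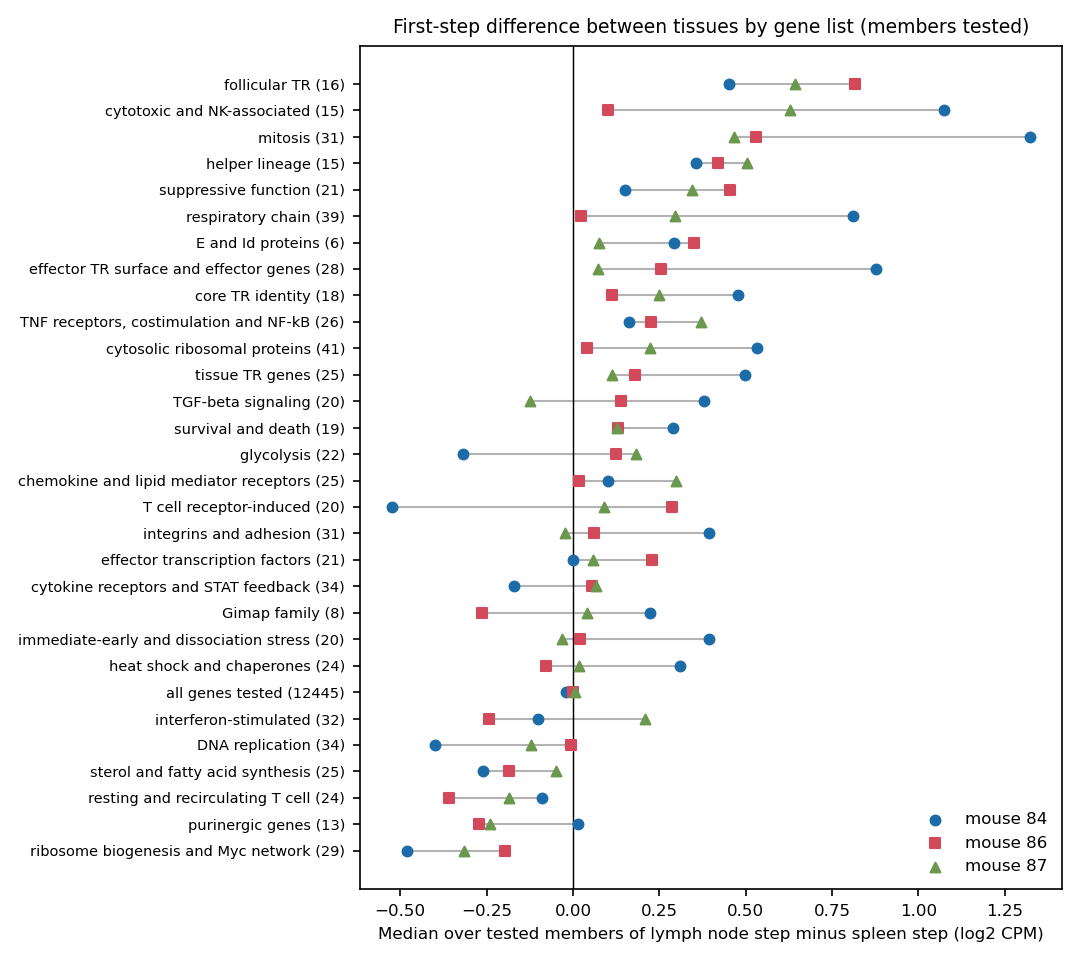
Median interaction (log2 CPM, horizontal axis) over the tested members of each gene list, with 1 point per mouse. The follicular and mitosis lists are among several that lie right of 0 in all 3 mice, and the ribosome biogenesis list is among those left of 0. The mitosis list had a median spleen step of 0 in each mouse. The respiratory chain list runs from 0.02 in mouse 86 to 0.81 in mouse 84.

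Respiratory chain and ribosomal protein genes fell in a few cases in spleen. Of 39 respiratory chain genes, 0 changed in lymph node and 3 fell in spleen, and of 41 cytosolic ribosomal proteins, 0 changed in lymph node and 4 fell in spleen. Of all genes, 5.66% changed in lymph node and 1.39% fell in spleen. Without spleen Id3+ eTR of mouse 84, 0 of both lists fell in spleen. Ranked by mean CPM per kb of exon, the densest 2% (241 genes) had a median interaction of 0.81, 0.08 and 0.36 by mouse, with 119 at an unadjusted p under 0.05 upward and 0 downward. Over the same mice the ratio of Id3+ eTR to Id3+ cTR totals was 1.97, 0.976 and 1.52 for spleen, and for lymph node it was 0.814, 0.845 and 1.01. Mouse 86 gave 0.39 for Icos, 2.29 for Nkg7, 0.50 for Slamf6 and 0.41 for Sh2d1a. It gave 0.11 for Ctla4 and 0.26 for Cd28, which stood at 0.93 and 0.90 in mouse 84. Of the 66 genes that DESeq2 called, 57 lay in the densest 10%. The 59 called upward had a median interaction of 0.98, 0.16 and 0.52 by mouse, and all 59 were positive in mouse 86. The highest count of any gene in a library lay between 3306 and 4706, and how duplicate reads were handled is stated in no source used here. The parts of depth and of duplicates in these values were not tested.

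**Figure D5:**
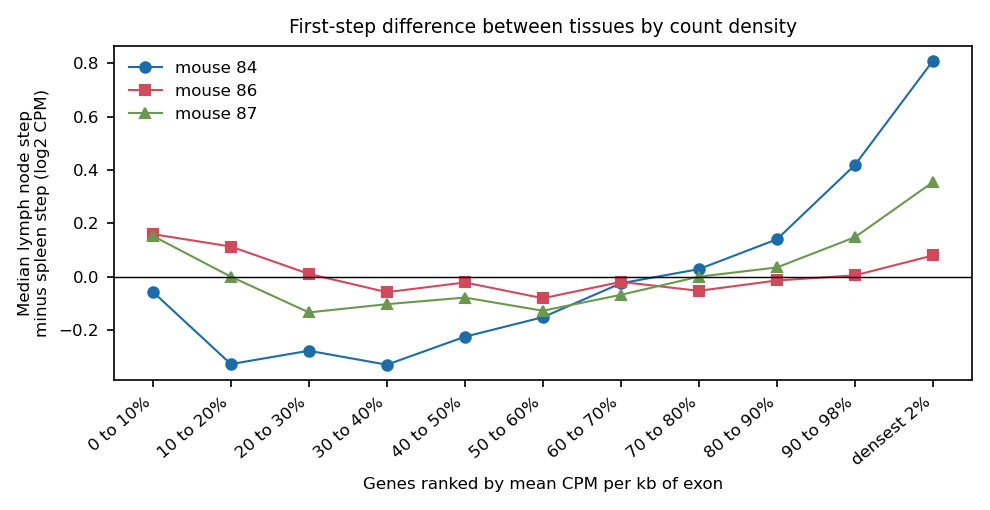
Median interaction (log2 CPM, vertical axis) in classes of genes ranked by mean CPM per kb of exon (horizontal axis), with 1 line per mouse. Mice 84 and 87 climb to 0.81 and 0.36 at the dense end, and mouse 86 stays near 0.

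The second step, from Id3+ eTR to Id3- eTR, and the whole path share libraries with the first step and are set beside it. The second-step interaction called 0 genes by edgeR, with 750 at an unadjusted p under 0.05 and a smallest adjusted p of 0.0558, while DESeq2 called 29 and limma-voom 1. The whole-path interaction called 3 (0.0241%), all lower in lymph node. For some genes the whole paths lay closer between tissues than the first steps, and for others further apart. Satb1 fell by 2.43 over the path in lymph node and 2.76 in spleen, Bcl2 by 2.79 and 2.71, S1pr1 by 1.29 and 1.49, and Klf2 by 1.18 and 1.05. Sh2d1a rose by 0.87 and 0.65, Tox by 0.78 and 0.93, and Icos by 2.42 and 2.08. Ccr6 rose by 3.88 and 2.81, and Itgb8 by 3.27 and 1.96. Further apart were Myc, which fell by 2.02 and 1.01, and Cysltr2, which rose by 5.07 and 2.50, as was Itga4. Of these whole-path differences between tissues, that of Itga4 passed the edgeR test. These genes are examples, chosen after their values were seen.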

How the data were processed

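Counts per gene in 18 libraries were deposited by the authors as raw integer counts from SMART-Seq v4 and Nextera XT RNA sequencing. Per the submitters' processing notes the tools were FastQC, TopHat, Bowtie, SAMtools, Picard and HTSeq 0.4.1. No label or header used here names a genome build. Of 37991 genes in the table, 32919 carried a symbol, and rows without one held 0.891% of counts. Genes were filtered with edgeR's filterByExpr (minimum count 10), leaving 12445, and scaled by TMM. The main test was edgeR's quasi-likelihood F test (edgeR 4.0.16, limma 3.58.1, R 4.3.3) in 6 groups of all 18 libraries with 12 residual degrees of freedom, two-sided, Benjamini-Hochberg adjusted and called at 0.05. P-values measure the spread between mice. CPM values are TMM-normalised, and log2 values use a prior count of 2. DESeq2 1.42.0 and limma-voom were alternatives. The procedure was tested on simulated data. Figures were drawn with matplotlib 3.10.9.

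Mice are paired by label: every mouse gave all groups. Deviations from group means correlated at a mean of 0.0243 over 45 pairs of libraries from the same mouse and -0.0121 over 90 pairs from different mice (7215 genes).

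Named genes were those called in the interaction, the 2 members of each list with the smallest unadjusted p, the sort genes, and the path genes with the strongest difference (6 rising and 6 falling with the larger lymph node step, 3 and 3 with the larger spleen step). Some genes of this rule are not reported here. Other named genes were chosen after their values were seen. Members and lists were chosen with earlier results of these data known. Ratios for genes with 1 to 3 counts in a group carry 95% intervals for counting error only.

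In the check for libraries of like content, made within groups only, no pair agreed within counting noise, so each counted as 1 replicate.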

Additional observations from a re-analysis of the deposited data

Results flagged for a closer look

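Over the whole path, from Id3+ cTR to Id3- eTR, 3 genes moved differently in the tissues by edgeR's interaction test. Itga4 had an interaction of -1.76 (adjusted p = 0.000109), and it remained called in every alternative tried. P2rx7, a receptor for extracellular ATP, had an interaction of -1.83 (adjusted p = 0.038), with 127, 152 and 110 CPM in spleen Id3+ cTR and 238, 183 and 178 in spleen Id3- eTR, against 116, 128 and 103 and then 38.9, 69.0 and 41.7 in lymph node. Cdca7l had an interaction of -1.73 (adjusted p = 0.038), with 37.7, 32.4 and 29.0 CPM and then 77.7, 60.7 and 78.9 in spleen, against 87.1, 60.2 and 78.8 and then 59.3, 50.0 and 40.6 in lymph node. Leaving out any 1 of the 12 Id3+ libraries ended the call for P2rx7 each time and for Cdca7l except without spleen Id3+ eTR or lymph node Id3+ cTR of mouse 86. The Id3- eTR libraries were not left out.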

How the results depend on the processing

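The first-step interaction gave 66 calls with DESeq2, 19 with DESeq2 after the densest 10% of genes was removed, and 0 to 1 when single libraries were left out (Nkg7 or Ica1). The first step in lymph node gave 458 to 841 calls with single libraries left out. The first step in spleen gave 1020 with DESeq2, 268 with limma-voom, 348 without the densest genes, 308 in a fit of the Id3+ libraries alone, 69 without the 3 spleen libraries in doubt and 256 to 645 with single libraries left out. The second-step interaction gave 4 with no filter, 29 with DESeq2, 24 with DESeq2 without the densest genes, 1 with limma-voom, 2 after thinning, 1 without the 3 libraries and 0 to 2 with single libraries left out. The whole-path interaction gave 47 with DESeq2, 44 with DESeq2 without the densest genes, 1 with limma-voom and 1 to 3 with single libraries left out. With mouse as a replicate block the calls were 0 for the first-step interaction, 692 for the first step in lymph node, 448 for the first step in spleen, 0 for the second-step interaction and 3 for the whole-path interaction. The first-step share of the path, rising genes, lymph node minus spleen, was 10.2 points with genes chosen without mouse 84, 12.9 without mouse 86 and 10.1 without the densest genes, against 6.55. Without the 3 libraries the sign reversed in the Lyz2 first-step interaction (-5.43), Pecam1 first-step interaction (0.013), Foxp3 first-step interaction (0.054) and Tox2 first-step interaction (-0.66). With single libraries left out Cd44 first-step interaction ran from -0.20 to 0.33, Cd4 first-step interaction from -0.23 to 0.17, and Foxp3 first-step interaction from -0.17 to 0.18. The cause of these differences was not tested.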

Other observations

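Mki67, a marker of cycling cells, stood at 5.68, 7.28 and 2.13 CPM in lymph node Id3+ cTR and 73.1, 22.8 and 30.1 in Id3+ eTR, and at 0.65, 0 and 0 and then 10.7, 10.6 and 11.7 in spleen. It rose by 3.03 in lymph node (edgeR, adjusted p = 0.00117), and its spleen ratio was 62.2 (95% counting interval 10.9 to 2483). Of 31 mitosis genes tested, 1 rose in lymph node and 2 in spleen, and of 34 DNA replication genes 1 rose and 2 fell in lymph node and 1 rose in spleen. Of all genes, 4.2% rose and 1.46% fell in lymph node and 2.93% rose in spleen, so the mitosis calls within each tissue were near those shares. Every lymph node step lay above every spleen step in 6 mitosis genes, and the reverse held in 0. The shares over all genes were 7.25% and 7.09%. The median spleen step of the mitosis list was 0 in each mouse. Sterol and fatty acid synthesis genes gave 0 calls in both tissues by edgeR (25 tested), with 0 interactions upward and 1 downward at an unadjusted p under 0.05.

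Cela1, an elastase gene, had 0 counts in lymph node Id3+ cTR and 30.1, 26.3 and 25.6 CPM in Id3+ eTR, at least 76.6-fold higher with a floor of 3 counts over the group. In spleen it went from 1.30, 4.0 and 0.617 CPM to 12.1, 10.6 and 16.7. Rgs2, a brake on G protein signalling, rose by 0.44 in lymph node (edgeR, adjusted p = 0.0172) and stood at -0.35 in spleen (adjusted p = 0.0769), an interaction of 0.79 (SE 0.15, unadjusted p = 7.18e-05). Zfp36l1, an RNA decay factor, rose by 0.93 in lymph node (adjusted p = 0.000466) and stood at 0.17 in spleen (adjusted p = 0.546). Cd74, the invariant chain, stood at 162, 172 and 221 CPM in lymph node Id3+ cTR and 381, 288 and 305 in Id3+ eTR, and its interaction was 1.18 (SE 0.22, unadjusted p = 5.45e-05).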
